A study of Mus musculus with 4 samples.

Results

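Synaptic pentraxins and AMPA receptor subunits are described here in hypothalamic cells that carry a leptin receptor reporter, across 4 cell classes and between fed and fasted plates. The 7 genes, of 35963 detected in the series, are 3 pentraxin genes (Nptx1, Nptx2, Nptxr) and 4 subunit genes (Gria1, Gria2, Gria3, Gria4). They were listed by symbol and found in the row names of all plate tables, 1 row each. The genes were chosen by their fasted against fed levels in AgRP neurons in these same plates, so those values are given as a description and carry no test.

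All cells came from C57BL/6 mice of 1 genotype, Lepr-cre;Rosa-LSL-tdTomato, in which Cre made from the leptin receptor locus switches on a red fluorescent protein for good. A red cell therefore had an active Lepr promoter at some time, and need not have leptin receptor transcripts when sorted. Red cells were sorted singly into 384-well plates and sequenced with CEL-seq2, which counts 1 tag per captured transcript from the 3′ end. The fed group held 3 plates, and the fasted group held 1 plate from mice kept without food for 24 h. The sources used here give no age, no sex, no number of mice per plate and no hour of collection. Since a single plate was fasted, its preparation and its feeding state cannot be told apart. Nothing states that the fed plates came from separate animals, so p-values rest on spread between plates, which may be technical. The fits estimate that spread partly from all genes together, and not from the plates of each gene alone.

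AMPA receptors are tetramers of GluA1 to GluA4, the products of Gria1 to Gria4, and they carry most fast excitatory transmission in the brain. GluA2 is the subunit whose RNA is edited so that the channel passes little calcium, and receptors without it let calcium in. NPTX1 and NPTX2 are secreted pentraxins that gather AMPA receptors at synapses, NPTX2 being made in response to neuronal activity, and NPTXR is their membrane-bound relative. AgRP neurons of the arcuate nucleus drive feeding when energy is short and receive excitatory input that is known to change with fasting. Tanycytes line the floor of the ventricle, and astrocytes are known to make AMPA receptor subunits as well.

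On GRCm38, the build of the deposited tables (mm10), the pentraxin genes lie on chromosome 11 (Nptx1, minus strand, 119538719 to 119547753), chromosome 5 (Nptx2, plus strand, 144545902 to 144557478) and chromosome 15 (Nptxr, minus strand, 79786351 to 79804766). Gria1 lies on chromosome 11 (plus strand, 57011387 to 57330244) and Gria2 on chromosome 3 (minus strand, 80681450 to 80802835). Gria3 lies on the X chromosome (plus strand, 41400854 to 41678601) and Gria4 on chromosome 9 (minus strand, 4417896 to 4796234). The gene identifiers of all 7 in the tables were those of GENCODE vM21, from which these positions come.

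Promoter sequence from RefSeq (GRCm38.p6) was matched for 2 of the 7 genes, Gria2 and Gria4. These 2 are shown because they were the only genes of the set with a promoter in the collection searched, and not for their levels. Each runs 5′ to 3′ on the minus strand from 250 bases before the start of the gene to 50 after it, at chr3:80802786-80803085 and chr9:4796185-4796484. Capitals mark a match, on either strand, to the core of the site of the transcription factor NRF1, searched as GCGCA and GCGC parted by 1 base of any kind.
Gria2: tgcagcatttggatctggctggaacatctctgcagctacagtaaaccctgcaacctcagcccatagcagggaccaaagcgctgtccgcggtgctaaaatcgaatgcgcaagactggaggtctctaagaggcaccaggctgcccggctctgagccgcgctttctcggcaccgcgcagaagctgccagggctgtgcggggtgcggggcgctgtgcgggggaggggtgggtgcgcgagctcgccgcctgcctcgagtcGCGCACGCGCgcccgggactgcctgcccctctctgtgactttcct
Gria4: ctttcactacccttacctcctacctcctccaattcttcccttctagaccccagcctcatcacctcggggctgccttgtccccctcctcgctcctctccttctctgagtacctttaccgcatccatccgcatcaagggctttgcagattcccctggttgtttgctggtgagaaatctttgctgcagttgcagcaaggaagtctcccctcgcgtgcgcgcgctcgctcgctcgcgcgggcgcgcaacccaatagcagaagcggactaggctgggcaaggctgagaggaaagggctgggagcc
The Gria2 promoter held 1 such match, at bases 256 to 265, and the Gria4 promoter none. Of 32851 promoters of this length in the table, 1512 (4.60%) held one. The palindrome TGACGTCA, the cAMP response element, was in neither, and in 588 (1.79%) of all. A match is a string of letters only, and binding was not measured.

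Of 1536 wells, 1279 were kept, 356, 322 and 331 from fed plates 1, 2 and 3 and 270 from the fasted plate, with plate totals from 4402407 to 5535041 transcripts. Cell classes were rebuilt from marker genes and their names end in "-like" for that reason. AgRP-like neurons numbered 81, 59 and 29 (fed plates 1, 2 and 3) and 24 (fasted plate), other neurons 43, 54, 76 and 25, tanycyte-like cells 44, 55, 61 and 34, and astrocyte-like cells 3, 28, 37 and 44. Fed plate 1 was left out of every astrocyte value because it held under 10 such cells. The AgRP-like cells of the plates came from different clusters: 73 of 81 on fed plate 1 from cluster 5, 59 of 59 and 26 of 29 on fed plates 2 and 3 from cluster 3, and 21 of 24 on the fasted plate from cluster 22, all of them led by Agrp or with Agrp among their top 10 genes. Cells that held the female transcript Xist but nothing Y-linked, called Xist-only below, made up 6.74, 51.6 and 42.0% of fed plates 1, 2 and 3, against 84.4% of the fasted one. The mean of 3 fed plates is given with its SD below, and levels are given per 1000000 transcripts of the class and plate (CPM). Each transcript counts once whatever its length, and levels of different genes are set side by side on that basis. Differences between genes in capture or mapping of the 3′ end were not measured.

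On the fed plates Nptx1 was seen in both neuron classes and in neither tanycyte-like nor astrocyte-like cells, while Nptx2 and Nptxr were also found in tanycyte-like cells. Nptx1 had 4.68, 2.38 and 6.21 CPM in AgRP-like neurons and 13.8, 19.7 and 17.8 CPM in other neurons of fed plates 1, 2 and 3. No Nptx1 transcript was seen among 1174005 transcripts of fed tanycyte-like cells or 312253 of fed astrocyte-like cells. Other neurons were therefore at least 6.86-fold higher than tanycyte-like cells and at least 1.83-fold higher than astrocyte-like cells, with 3 counts over the fed plates as the floor, and AgRP-like neurons at least 1.64-fold higher than tanycyte-like cells. Nptx2 had 9.83, 17.8 and 2.07 CPM in AgRP-like neurons, 33.9, 21.1 and 27.8 CPM in other neurons and 9.42, 8.27 and 14.2 CPM in tanycyte-like cells. The AgRP-like and tanycyte-like values overlapped and lay below all those of other neurons. Fed astrocyte-like cells had no Nptx2 transcript, which puts other neurons at least 2.81-fold higher.

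Nptxr, the membrane-bound member, was the pentraxin gene with the highest level in each of the 4 classes. It stood at 228 ± 30.8 CPM in AgRP-like neurons (n = 3 plates), 300 ± 58.2 in other neurons (n = 3), 120 ± 34.8 in tanycyte-like cells (n = 3) and 24.3 ± 13.1 in astrocyte-like cells (n = 2). All fed neuron values, from 208 to 367 CPM, lay above those of tanycyte-like and astrocyte-like cells, from 15.0 to 157 CPM. Nptxr was seen in 79 of 81, 59 of 59 and 28 of 29 fed AgRP-like cells, whereas Nptx1 was seen in 16 of 169 (9.47%) and Nptx2 in 31 of 169 (18.3%).

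Among the subunits, Gria2 led in both neuron classes, with 650 ± 89.4 CPM for AgRP-like and 652 ± 149 CPM for other neurons (n = 3 plates each). Its level was 380 ± 43.8 CPM in tanycyte-like cells (n = 3) and 505 ± 36.7 CPM in astrocyte-like cells (n = 2). Gria4 stood at 472 ± 97.2 and 420 ± 54.3 CPM in the 2 neuron classes, and at 44.6 ± 14.1 and 51.4 ± 1.48 CPM in tanycyte-like and astrocyte-like cells. The lowest neuron value of Gria4, 378 CPM, was above the highest one of tanycyte-like and astrocyte-like cells, 60.7 CPM, while oligodendrocyte precursor-like cells had 501 and 593 CPM on fed plates 2 and 3. Gria2 overlapped between neurons and astrocyte-like cells, since its level on fed plate 1 in other neurons (485 CPM) lay within the range of the astrocyte-like cells (479 and 531 CPM).

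Gria1 was highest in astrocyte-like cells, at 1993 and 1963 CPM on fed plates 2 and 3. It was at 460, 663 and 574 CPM in other neurons, at 393, 410 and 448 CPM in AgRP-like neurons and at 84.8, 116 and 175 CPM in tanycyte-like cells. The 4 classes did not overlap in Gria1. Gria3 had another order: 104, 102 and 77.1 CPM in tanycyte-like cells, 55.1, 99.3 and 85.9 CPM in other neurons, 43.5, 52.3 and 38.3 CPM in AgRP-like neurons, and only 4 and 2 transcripts in astrocyte-like cells. Tanycyte-like cells and other neurons overlapped in it, and AgRP-like neurons lay below both.

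**Figure D1:**
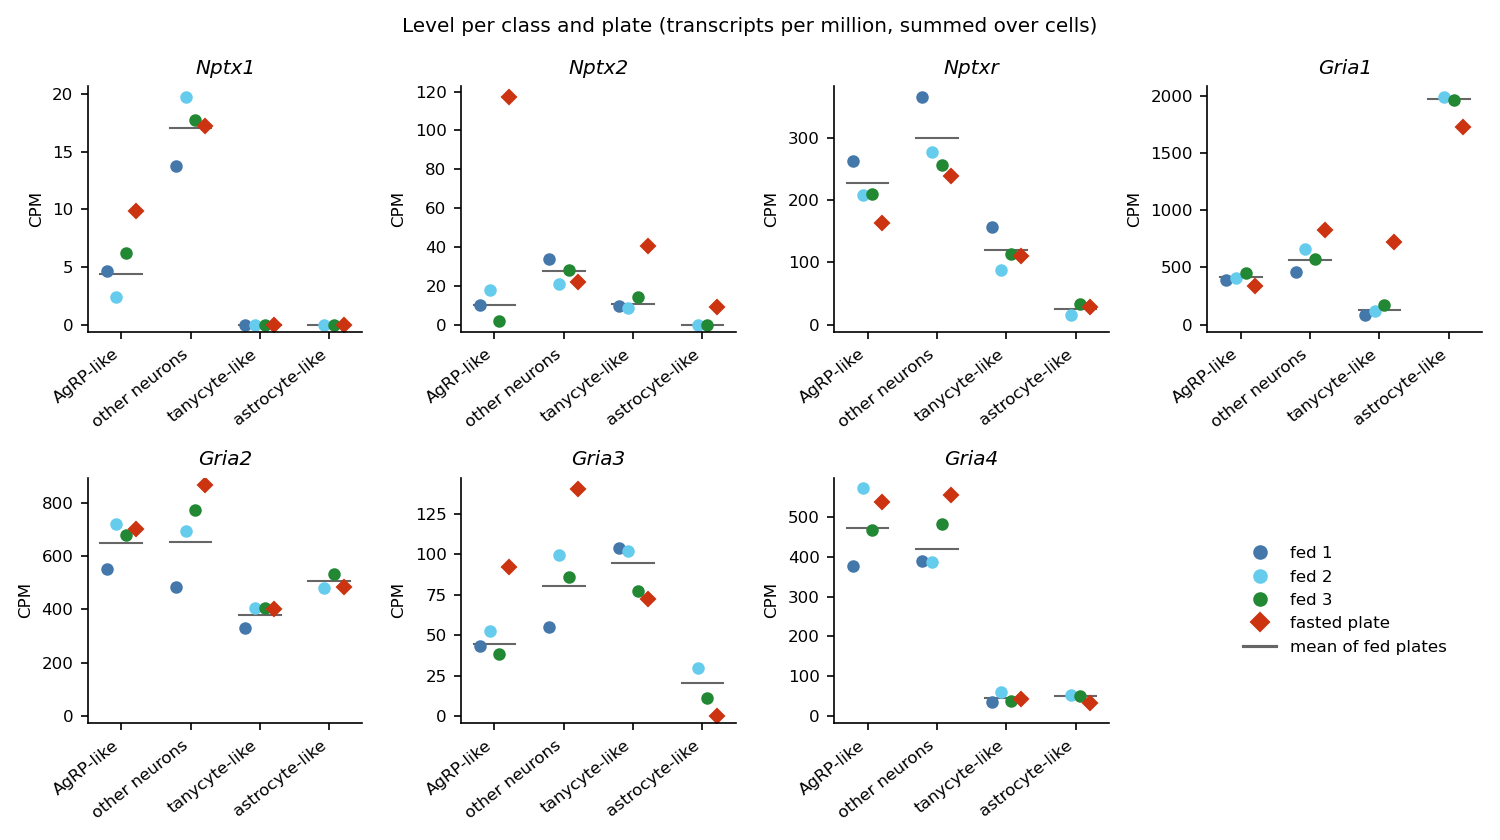
Level of each gene in CPM (y axis, linear) in the 4 classes (x axis), with 1 point per plate (circles: fed plates, diamonds: fasted plate) and a line at the mean of the fed plates. Gria1 stands highest in astrocyte-like cells, Gria4 is higher in both neuron classes than in the 2 other classes shown, and the fasted plate is apart from the fed plates for Nptx2 in AgRP-like neurons and Gria1 in tanycyte-like cells.

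Tests between classes on the fed plates used edgeR's quasi-likelihood test with plate as a block, over 13170 genes and 6 class pairs, with an adjusted p under 0.05 as the threshold. The fed AgRP-like levels were part of the contrast that chose the genes. Calls in any class pair with AgRP-like neurons are therefore not independent of that choice, and their p-values are given as a description only. AgRP-like neurons against other neurons called 5 of the 7 genes, all lower in AgRP-like neurons, where 14.9% of all genes were called. The log2 difference was -1.93 for Nptx1 (SE 0.46, adjusted p = 8.1e-04), -1.34 for Nptx2 (SE 0.34, adjusted p = 0.00268) and -0.35 for Nptxr (SE 0.12, adjusted p = 0.0338). For the subunits it was -0.80 for Gria3 (SE 0.18, adjusted p = 2.3e-04) and -0.38 for Gria1 (SE 0.12, adjusted p = 0.0156). Gria2 (0.05, SE 0.11) and Gria4 (0.20, SE 0.12) did not pass. The Gria3 call was kept in all 13 alternatives run, whereas the calls of Nptx1, Nptx2, Nptxr and Gria1 were each lost in some. DESeq2's Wald test gave adjusted p = 0.0656 for Nptx1, 0.133 for Nptx2, 0.111 for Nptxr and 0.121 for Gria1. Without fed plate 1 the adjusted p of edgeR was 0.0677 for Nptx2 and 0.214 for Nptxr, without fed plate 2 it was 0.0950 for Nptx1, 0.0996 for Nptxr and 0.324 for Gria1, and without fed plate 3 it was 0.0773 for Nptx2. With the fasted plate added, the Nptx2 difference was -0.08 (SE 0.68, adjusted p = 0.977) and that of Gria1 -0.55 (SE 0.43, adjusted p = 0.574).

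Neurons against tanycyte-like cells differed in most of the 7 genes, next to 51.6% of all genes called for AgRP-like and 50.9% for other neurons. Gria4 was higher in AgRP-like neurons by 3.53 (log2, SE 0.19, edgeR adjusted p = 1.6e-31) and in other neurons by 3.34 (SE 0.19, adjusted p = 2.3e-29). Gria1 was higher by 1.83 (SE 0.16) and 2.22 (SE 0.16), Nptxr by 1.05 and 1.40 (both SE 0.16) and Gria2 by 0.90 and 0.85 (both SE 0.13), all called. Gria3 went the other way in AgRP-like neurons, at -0.91 (SE 0.22, adjusted p = 1.9e-04), and did not pass in other neurons (-0.11, SE 0.20). Nptx2 was higher in other neurons (1.37, SE 0.48, adjusted p = 0.0130), a call lost without fed plate 1 (1.15, adjusted p = 0.0854) with DESeq2 (adjusted p = 0.103) and with the fasted plate added (0.97, adjusted p = 0.449), and was 0.03 (SE 0.54) in AgRP-like neurons, which did not pass. With the fasted plate added, Gria1 and Gria3 of AgRP-like against tanycyte-like cells no longer passed (adjusted p = 0.155 and 0.108).

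Astrocyte-like cells stood apart in Gria1. The log2 difference from them was -2.14 in AgRP-like neurons (SE 0.15), -1.76 in other neurons (SE 0.14) and -3.98 in tanycyte-like cells (SE 0.17, edgeR adjusted p = 4.1e-37), and all 3 calls held in each alternative run. The median over all genes was 0.15 to 0.21 in these contrasts, in which 39.7, 39.1 and 19.7% of genes were called. Nptxr was higher than in astrocyte-like cells by 2.97 (SE 0.38) in AgRP-like neurons, 3.33 (SE 0.36) in other neurons and 1.93 (SE 0.44) in tanycyte-like cells, and Gria4 by 3.27 (SE 0.29) and 3.08 (SE 0.29) in the neuron classes, all called. Gria3 was higher in other neurons by 2.08 (SE 0.50, adjusted p = 3.5e-04) and in tanycyte-like cells by 2.19 (SE 0.52, adjusted p = 6.0e-04), on 6 astrocyte transcripts. For AgRP-like neurons it was 1.28 (SE 0.55, adjusted p = 0.0549). Gria2 passed narrowly in AgRP-like (0.48, SE 0.17, adjusted p = 0.0170) and other neurons (0.43, SE 0.17, adjusted p = 0.0342), and neither call held with DESeq2's size factors (0.35 and 0.31, adjusted p = 0.0851 and 0.136). In tanycyte-like against astrocyte-like cells Gria2 did not pass (-0.42, SE 0.18, adjusted p = 0.0920) but did with those factors (-0.52, adjusted p = 0.0284), and Gria4 was -0.26 (SE 0.43).

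The make-up of the subunit transcripts differed by class. Gria2 held 40.3, 41.1 and 41.6% of all Gria1 to Gria4 transcripts in AgRP-like neurons of fed plates 1, 2 and 3, and 34.9, 37.7 and 40.4% in other neurons. In tanycyte-like cells it held 59.7, 59.3 and 58.3%, and in astrocyte-like cells 18.8 and 20.8%. Gria1 filled most of the astrocyte total, at 78.0 and 76.8%, and only 15.3, 16.9 and 25.1% of the tanycyte total. The ranges of Gria2 did not overlap between AgRP-like neurons, tanycyte-like cells and astrocyte-like cells. These shares were not tested, and transcripts do not say how the proteins assemble or which are edited.

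**Figure D2:**
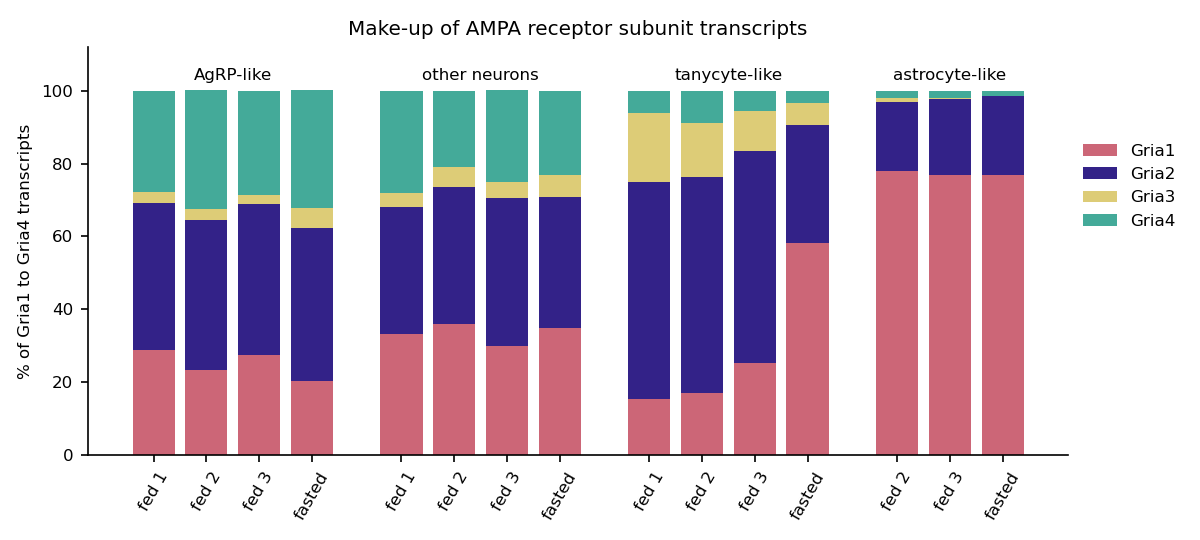
Share of each subunit gene among all Gria1 to Gria4 transcripts (y axis, percent) per class and plate (x axis), 1 bar per plate with at least 10 cells of the class. Gria1 fills 76.8 to 78.0% of the bars of astrocyte-like cells, and the tanycyte-like bar of the fasted plate differs from its fed neighbours by its share of Gria1, 58.2%.

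In AgRP-like neurons the fasted plate differed most in Nptx2. Its level was 9.83, 17.8 and 2.07 CPM in fed plates 1, 2 and 3 and 117 CPM in the fasted one, a fitted log2 difference of 3.45 (SE 0.47). The fasted value lay far above all fed ones. Gria3 was at 43.5, 52.3 and 38.3 CPM fed and 91.7 CPM fasted (1.05, SE 0.25), again with no overlap. Nptx2 and Gria3 were the 2 of 7 genes past the threshold over all genes, of which 5.33% were called in this contrast. Since the contrast took part in choosing the genes, nothing is read from that count. Xist-only cells made up 8.64, 67.8 and 20.7% of fed AgRP-like cells and 91.7% of fasted ones, and the part of sex in these values was not tested.

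The other 5 genes were closer to their fed levels in AgRP-like neurons. Nptx1 was at 9.85 CPM on the fasted plate (16 transcripts) against 2.38 to 6.21 CPM on the fed plates (1.23, SE 0.73). With the Agrp gate on single neurons its difference was 2.10 (SE 0.98). Nptxr was at 163 CPM, below its fed range of 208 to 263 CPM (-0.46, SE 0.22), and Gria1 at 336 CPM, below its fed range of 393 to 448 CPM (-0.28, SE 0.22). Gria2, at 702 CPM (0.14, SE 0.22), and Gria4, at 538 CPM (0.22, SE 0.23), lay within their fed ranges of 550 to 722 and 378 to 572 CPM. The share of Gria2 among subunit transcripts was 42.1% on the fasted plate, next to 40.3 to 41.6% on the fed plates.

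The Nptx2 transcripts of the fasted plate were spread over many cells. At least 1 was seen in 18 of 24 AgRP-like cells, at least 5 in 13 and at least 10 in 8, and the richest cell, with 30, held 15.8% of the sum. On the fed plates 13 of 81, 16 of 59 and 2 of 29 cells had any, and the richest cell held 7. The fasted cells were also deeper, with a median of 65244 transcripts against 26111, 30430 and 33121. After each cell was thinned to 2000 transcripts, Nptx2 was seen in 4 of 23 fasted cells (17.4%, exact 95% interval 4.95 to 38.8) and 3 of 168 fed cells (1.79%, 0.370 to 5.13). Thinned to 1000, it was seen in 0 of 24 fasted cells, which allows up to 12.5% by a floor of 3 counts (exact 95% upper limit 14.2%), and 1 of 169 fed cells, and at that depth no difference was detectable. For Gria3 the thinned shares at 2000 were 4 of 23 (17.4%) and 6 of 168 (3.57%).

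Other classes of the fasted plate also held some Nptx2. It was at 40.4 CPM in tanycyte-like cells (14 transcripts), 31.7 CPM in endothelial-like cells (7 transcripts) and 9.27 CPM in astrocyte-like cells (3 transcripts). The fed means of these classes were 10.6, 3.30 and 0 CPM. In other neurons of the fasted plate it was at 21.7 CPM, within the fed range of 21.1 to 33.9 CPM. RNA carried between wells of 1 plate was not tested. The level in AgRP-like neurons, 117 CPM, was above those of all these classes.

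**Figure D3:**
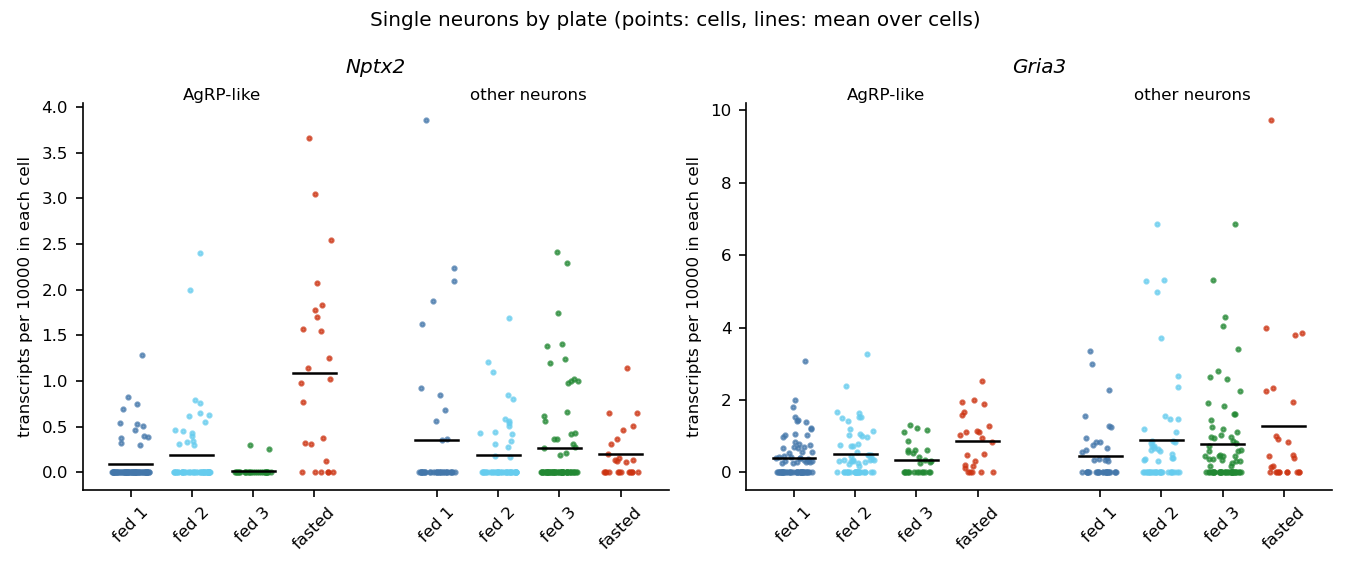
Nptx2 (left) and Gria3 (right) in single neurons, as transcripts per 10000 of the cell (y axis), for AgRP-like and other neurons of each plate (x axis), with 1 point per cell and a line at the mean over cells. Nptx2 was seen in 18 of 24 AgRP-like cells of the fasted plate, and in other neurons the plates overlap for both genes.

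Other neurons gave a test of feeding state that the choice of genes did not use. None of the 7 genes passed, with 0.143% of all genes called (18 of 12624 by edgeR, and 1219 at an unadjusted p under 0.05). The count of called genes was 640, 109 and 165 without fed plates 1, 2 and 3 in turn, and 241 in Xist-only cells. Nptx2 was 27.6 ± 6.39 CPM fed (n = 3) and 21.7 CPM fasted (-0.32, SE 0.40, edgeR adjusted p = 0.812). Gria3 was at 55.1, 99.3 and 85.9 CPM fed and 140 CPM fasted (0.80, SE 0.29, adjusted p = 0.407, unadjusted p = 0.0187). The Gria3 value of the fasted plate lay above all fed values, and 1 cell with 33 transcripts held 21.3% of it. Among Xist-only cells alone, Gria3 passed (1.03, SE 0.26, adjusted p = 0.00773). By DESeq2 and the remaining alternatives none of the 7 passed.

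The 3 other subunits of other neurons were also highest on the fasted plate, and none passed the test. Gria1 was at 460, 663 and 574 CPM fed and 830 CPM fasted (0.56, SE 0.27, edgeR adjusted p = 0.535), where 1 cell with 168 transcripts held 18.4% of the fasted sum. Gria2 differed by 0.42 (SE 0.29) and Gria4 by 0.41 (SE 0.25). Nptx1 differed by 0.00 (SE 0.51) and Nptxr by -0.32 (SE 0.28).

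In tanycyte-like cells Gria1 rose on the fasted plate. Its level was 84.8, 116 and 175 CPM in fed plates 1, 2 and 3 (27, 42 and 86 transcripts) and 719 CPM in the fasted one (249 transcripts). The fasted value lay above all fed ones, with a log2 difference of 2.49 (SE 0.26) by edgeR and 2.52 (SE 0.41) by DESeq2. It was the 1 of 6 tested genes of the set that was called in this class, where 2.90% of all genes were. Gria2 (0.08, SE 0.28), Gria3 (-0.35, SE 0.39), Gria4 (-0.03, SE 0.50) and Nptxr (-0.10, SE 0.35) did not pass, nor did Nptx2 (1.87, SE 0.97, adjusted p = 0.327). Nptx1 had no transcript in tanycyte-like cells of any plate.

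The Gria1 rise was uneven over cells. At least 1 Gria1 transcript was seen in 15 of 44, 19 of 55 and 36 of 61 fed cells and in 23 of 34 fasted cells. At least 10 were seen in 6 fasted cells and in 1 fed cell, and 5 of those 6 held no transcript of Rax, a transcription factor that marks tanycytes. The 4 richest fasted cells held 156 of the 248 transcripts summed from rounded cell values (62.9%), the top cells holding 64 and 40. Without the 4 richest cells of each plate the levels were 47.1, 75.2 and 117 CPM fed and 329 CPM fasted. With each cell thinned to 2000 transcripts, Gria1 was seen in 13 of 32 fasted cells (40.6%) and 29 of 155 fed cells (18.7%), against 67.6 and 43.8% without thinning.

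The class was made of 3 clusters that the plates filled unequally. In cluster 1, led by Col25a1, Frzb and Crym, Gria1 was at 70.1, 130 and 171 CPM fed (28, 46 and 32 cells) and 418 CPM fasted (18 cells). In cluster 10, led by Slit2, Lhx2 and Nnat, it was at 0, 102 and 239 CPM (7, 5 and 19 cells) and 1349 CPM (15 cells). In cluster 20, led by Scn7a, it was at 143, 52.8 and 146 CPM, and the fasted plate had 1 cell. The fasted plate was above the fed plates in both cluster 1 and cluster 10. In cluster 1 alone the difference was 1.70 (SE 0.33, edgeR adjusted p = 8.7e-05), and without the richest well of each plate of the whole class it was 2.30 (SE 0.27, adjusted p = 6.1e-14). With 4 peptide genes left out of the clustering it was 1.73 (SE 0.29, adjusted p = 1.9e-06). These alternatives were chosen after the data were seen.

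Sex and astrocyte markers moved with the plates as well. Xist-only cells made up 4.55, 29.1 and 16.4% of fed tanycyte-like cells and 88.2% of fasted ones. In Xist-only cells alone, with fed plates 2 and 3, the Gria1 difference was 1.74 (SE 0.47) and did not pass (edgeR adjusted p = 0.0876). The 8 astrocyte markers summed to 622, 629 and 765 CPM in fed and 979 CPM in fasted tanycyte-like cells, next to 10219 and 10382 CPM in fed astrocyte-like cells. The 8 tanycyte markers summed to 9492, 8279 and 9744 CPM in fed and 7361 CPM in fasted tanycyte-like cells. In cluster 10, which held 3 of the 4 fasted cells richest in Gria1, the astrocyte marker Slc6a11 was at 85.7, 204 and 146 CPM fed and 398 CPM fasted, and in cluster 1 at 167, 163 and 160 against 248 CPM. The astrocyte marker Agt was at 0, 0 and 26.5 CPM fed and 26.5 CPM fasted in cluster 10. The astrocyte marker Aqp4 was at 0, 67.9 and 13.3 CPM fed and 35.3 CPM fasted there. The tanycyte markers Rax (314, 713 and 225 CPM fed, 132 CPM fasted) and Crym (1430, 373 and 239 CPM fed, 106 CPM fasted) were lowest on the fasted plate in that cluster. The tanycyte marker Scn7a was highest on the fasted plate (85.7, 33.9 and 226 CPM fed, 558 CPM fasted). Frzb, also a tanycyte marker, lay within its fed range (857, 204 and 438 CPM fed, 256 CPM fasted). The part of astrocyte RNA in the rise of Gria1 was not tested.

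Astrocyte-like cells, which had the most Gria1, did not pass. Gria1 was at 1993 and 1963 CPM fed and 1728 CPM fasted (-0.12, SE 0.22, edgeR adjusted p = 0.987), and Gria2 at 479 and 531 against 485 CPM (0.01, SE 0.27). Only these 2 genes had enough counts for the test, in which 0.601% of genes were called. Nptxr was at 15.0 and 33.6 CPM fed and 27.8 CPM fasted, Gria4 at 52.4 and 50.3 against 34.0 CPM, and Gria3, with 6 fed transcripts, had none on the fasted plate.

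The Gria1 difference between feeding states itself differed between classes. Other neurons minus tanycyte-like cells gave -1.97 (log2, SE 0.31, edgeR adjusted p = 1.8e-05), in a fit where 0.349% of genes were called. It was larger in tanycyte-like than in astrocyte-like cells by 2.43 (SE 0.33, adjusted p = 1.0e-07), where 0.140% were called. Other neurons and astrocyte-like cells differed by 0.46 (SE 0.30, adjusted p = 0.812), where 0.00874% were called. Without the plate term the first of these no longer passed (-1.96, SE 0.46, adjusted p = 0.212). No other gene of the set passed in any of the 3 pairs. AgRP-like neurons were kept out of this fit because their contrast took part in choosing the genes.

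**Figure D4:**
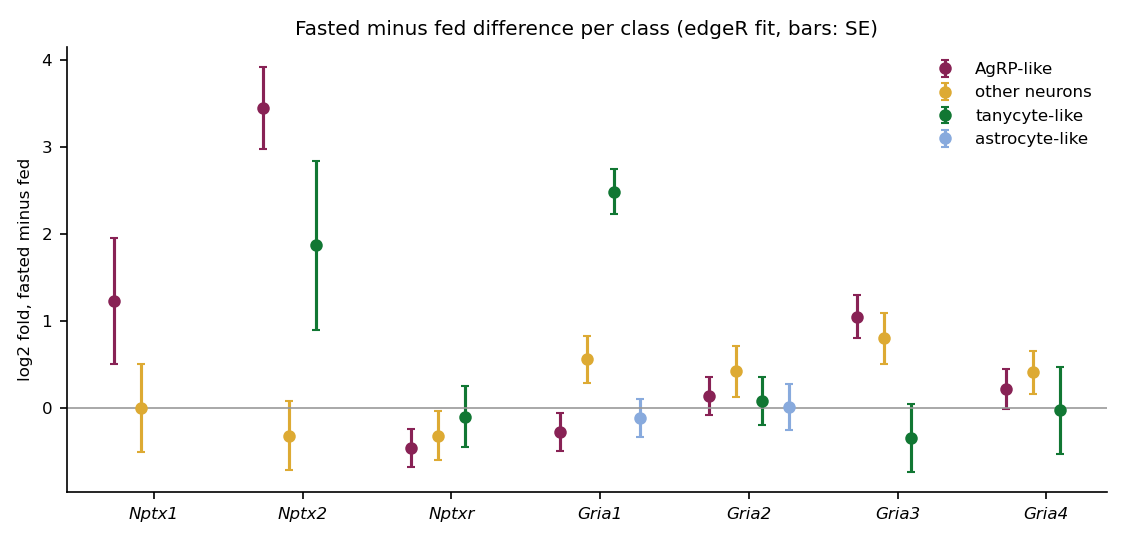
Fitted difference between the fasted and the fed plates (y axis, log2) for each gene (x axis) and class (colour), with the SE as bars, for genes with enough counts in the class. Values of AgRP-like neurons are a description, and among the other classes Gria1 in tanycyte-like cells, at 2.49, is the difference that passed the test.

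Within the other neurons, Gria3 differed between sub-clusters grouped by the higher of 2 transporter genes, Slc32a1 (GABAergic) or Slc17a6 (glutamatergic). The grouping was not clean: the largest glutamatergic sub-cluster, of 27 cells, had 1.67 Slc32a1 and 3.49 Slc17a6 transcripts per 10000, and a GABAergic one of 23 cells had 1.37 and 1.24. Glutamatergic sub-clusters had 161 and 145 CPM on fed plates 2 and 3, and GABAergic ones had 56.0, 31.0 and 50.1 CPM on fed plates 1, 2 and 3. The groups did not overlap, with a log2 difference, GABAergic minus glutamatergic, of -1.91 (SE 0.24, edgeR adjusted p = 1.9e-06). Gria2 was lower too, at 465, 573 and 665 CPM against 807 and 954 CPM (-0.55, SE 0.13, adjusted p = 0.00924), a call lost without the plate term (-0.67, adjusted p = 0.0574). These were 2 of the 7 genes, where 4.55% of all genes were called. Nptx2 leaned towards GABAergic cells (1.12, SE 0.42, adjusted p = 0.156) and Nptx1 towards glutamatergic cells (-1.18, SE 0.54, adjusted p = 0.311), and neither passed. Fed plate 1 had 9 glutamatergic cells and gave no sum for them. With plate as a block, the tested differences between the 2 groups therefore rest on fed plates 2 and 3 alone. In GABAergic cells of the fasted plate (18 cells, 122 transcripts) Gria3 stood at 165 CPM, above all fed GABAergic values, and this was not tested.

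AgRP-like neurons are themselves GABAergic cells, and their Gria3 level of 44.7 ± 7.07 CPM (n = 3) lay beside the 45.7 ± 13.1 CPM (n = 3) of the GABAergic sub-clusters. Their Nptx2 level, at 9.91 ± 7.87 CPM, lay below the 33.3 ± 4.51 CPM of the same sub-clusters. These pairs were set side by side and not tested.

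Sex could not be told apart from feeding state on the fasted plate, so Xist-only and Y-only cells were compared within fed plates 2 and 3. None of the 7 genes passed in other neurons, where 0.0948% of genes were called, or in all kept cells, where 1.22% were. Gria3, on the X chromosome, differed by -0.88 in other neurons (SE 0.36, edgeR adjusted p = 0.995, unadjusted p = 0.0342), lower in Xist-only cells, and by -0.19 in all kept cells (SE 0.30). Nptx1 differed by -1.77 in other neurons (SE 0.61, adjusted p = 0.904). Gria1 in all kept cells, at 0.44 (SE 0.19), had adjusted p = 0.478.

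Auxiliary proteins decide how AMPA receptors are trafficked and gated, and 26 of their genes were followed. Between AgRP-like and other neurons of the fed plates, 24 were tested, 3 were higher and 3 lower, where 14.9% of all genes were called, with a median log2 difference of -0.10 against 0.00 over all genes. Cacng5, a transmembrane AMPA receptor regulatory protein, was higher in AgRP-like neurons by 1.96 (SE 0.18, edgeR adjusted p = 1.2e-16), at 149, 96.2 and 109 CPM against 35.0, 24.6 and 31.7 CPM. Shisa9, which slows recovery of the receptor from desensitization, was higher by 1.30 (SE 0.17, adjusted p = 6.4e-07), and Olfm1, a secreted protein found with the receptor, by 0.42 (SE 0.12, adjusted p = 0.00960). Cacng3, of the same family as Cacng5, was lower (-2.20, SE 0.39, adjusted p = 4.5e-06), and so were the scaffolds Grip1 (-0.71, SE 0.13) and Grip2 (-1.01, SE 0.33).

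Between GABAergic and glutamatergic other neurons 3 of 25 were lower in the former, where 4.55% of all genes were called, Cacng3 (-2.25, SE 0.45), Shisa9 (-1.07, SE 0.22) and Nsf (-0.73, SE 0.14), and none was higher.

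With feeding state, none of 25 tested passed in other neurons (median 0.08), where 0.143% of all genes were called, and none of 11 in astrocyte-like cells (median -0.34), where 0.601% were, by edgeR in both. In tanycyte-like cells 2 of 14 passed, where 2.90% of all genes did, with a median of 0.08 against -0.03 over all genes. The synaptic scaffold Dlg2 rose from 148, 182 and 213 CPM to 436 CPM (1.26, SE 0.27, edgeR adjusted p = 6.3e-04). Cpt1c, which promotes the delivery of GluA1, fell from 65.9, 74.4 and 99.4 CPM to 26.0 CPM (-1.63, SE 0.50), on 9 fasted transcripts. This was not particular to tanycyte-like cells. Cpt1c went from 102, 89.1 and 99.3 to 57.9 CPM in AgRP-like neurons, and from 91.1, 94.3 and 92.7 to 56.1 CPM in other neurons. In astrocyte-like cells it was at 15.0 and 44.8 CPM fed and 43.3 CPM fasted. In AgRP-like neurons, as a description, Cacng5 went from 149, 96.2 and 109 CPM to 63.4 CPM (-0.88, SE 0.26).

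Of 15 pentraxin partners and activity-regulated genes, all were tested between AgRP-like and other neurons of the fed plates, where 1 was higher and 5 lower (median -0.11), beside 14.9% of all genes called. Bdnf, a secreted neurotrophin, had 0, 1 and 1 transcripts in fed AgRP-like neurons and 59, 59 and 49 in other neurons, and was called lower by edgeR (adjusted p = 2.7e-18). Nrn1 (-4.30, SE 0.50), Vgf (-2.22, SE 0.14), the synaptic adhesion protein Lrrtm1 (-1.19, SE 0.20) and Nr4a1 (-1.05, SE 0.30) were lower, and Junb was higher (1.28, SE 0.23). On the fasted plate Vgf, a secreted protein precursor induced by activity, went in AgRP-like neurons from 80.1, 86.7 and 83.8 CPM to 1357 CPM (4.05, SE 0.20), and Lrrtm1 from 22.9, 43.9 and 32.1 to 81.9 CPM (1.35, SE 0.28). Lrrtm2 went from 53.4, 52.9 and 72.4 to 27.7 CPM (-1.05, SE 0.30). These AgRP values are a description, as they come from the contrast that chose part of the genes. In other neurons the median difference of the 15 between fasted and fed plates was -0.04. Nr4a1 fell in tanycyte-like cells (-1.94, SE 0.51), where 10 of the list were tested. Vgf rose in astrocyte-like cells (2.02, SE 0.55), where 6 were tested, from 2 and 9 transcripts on fed plates 2 and 3 to 44. AgRP-like neurons of the same fasted plate held much Vgf, and RNA carried between its wells was not tested.

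Across 34 sums of class and plate from 12 classes, the genes whose log2(CPM + 10) was most like each member differed between the pentraxins. Nptx2 was most like Vgf (Pearson r = 0.735), then Set (0.682) and Pcmt1 (0.663), out of 9829 genes with a mean of at least 20 CPM. Nptx1 was most like Nefl (0.833), with St8sia3 (0.808) also among its closest, and Nptxr like Bex3 (0.915), Pnmal2 and Gprasp1. Gria1 was most like Gabbr2 (0.915), Lsamp and Gabrb1, and Gria2 like Lsamp (0.896), Dgkb and Apc2. Gria3 was most like Nlgn2 (0.822), Mmp16 and Nalcn, and Gria4 like Syt16 (0.916), Dlg2 and Enox1. The sums share plates and depth, so these values describe likeness only. They include the AgRP-like sum of the fasted plate, which took part in choosing the genes and in which both Nptx2 and Vgf were high. Nptx1 and Nptx2 themselves had means under 20 CPM.

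Among further classes, oligodendrocyte precursor-like cells of 1 fed plate had 389 CPM of Gria3 (44 transcripts), above every other class with at least 10 cells, with 690 CPM of Gria2, 593 CPM of Gria4 and 79.6 CPM of Gria1. Fed endothelial-like cells had 28.5 ± 14.9 CPM of Gria1 and 40.4 ± 19.2 CPM of Gria4 (n = 3 plates). Pars tuberalis-like cells had 61.9 CPM of Nptx2 (13 transcripts) in the 1 fed plate that held enough of them, and 19.4 CPM (11 transcripts) in the fasted one.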

How the data were processed

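The deposited tables hold expected counts, that is transcripts per gene and well that the authors corrected for collisions of the 6-base unique molecular identifiers, neither normalized nor filtered by well. Per the submitters' processing notes, Trim Galore and STAR were used with the mm10 build. Which program counted transcripts, and on which annotation, is not given in the sources used here. A well was kept with 1000 or more transcripts (spike-in and mitochondrial ones not counted) and a mitochondrial share under 30%.

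Cells were clustered with scanpy 1.11.5 (2000 variable genes, 30 components, 10 neighbours, Leiden resolution 1.5). The 7 genes, both pathway lists, Xist and Y-linked genes were left out of the features. Naming a cluster took 3 or more markers of 1 set, each higher by 1 or more (log2) and seen in 25% or more of its cells, with a lead of 2 markers over every other set. Clusters with 40 or more neuron marker transcripts per 10000 counted as neurons. The naming rule, the margin and the return of 4 peptide genes to the features were set after clusters and some values of these genes had been seen. The members and lists were chosen with earlier results of these data known. No doublets were removed, since 1 cell was sorted per well, and leaving out the 1, 1, 3 and 3 that Scrublet called is an alternative.

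Counts were summed per class and plate (at least 10 cells), rounded, and tested in R 4.3.3 with edgeR 4.0.16 (glmQLFit, glmQLFTest, filterByExpr, TMM factors), p-values being adjusted by Benjamini-Hochberg across every gene in the fit. DESeq2 1.42.0 was an alternative. Fits of 3 fed plates and 1 fasted plate have 2 residual degrees of freedom and assume that the fasted plate varies like the fed ones. The fits by feeding state in astrocyte-like cells, by sex and by transmitter type have fewer. SEs are the fitted log2 difference over the root of edgeR's F. Classes of the same plate share its preparation, so plate is a block between classes. CPM use plain totals. Exact Clopper-Pearson intervals at 95% and floors of 3 counts cover counting error only. On simulated counts the fits were tested with known changes. All 7 members are named throughout. Of each list, up to 6 genes with the lowest adjusted p under 0.05 are named in each comparison described (Bdnf's counts in place of a fold near the floor). List genes were also called in comparisons not described for the lists, such as neurons against tanycyte-like cells. For each member the 3 genes most like it are named, except 1 gene that is not reported here.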

Additional observations from a re-analysis of the deposited data

Results flagged for a closer look

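The difference of Gria1 between fasted and fed plates was not the same in all classes, by a test of the difference itself. Other neurons minus tanycyte-like cells gave -1.97 (log2, SE 0.31, edgeR adjusted p = 1.8e-05), and tanycyte-like minus astrocyte-like cells gave 2.43 (SE 0.33, adjusted p = 1.0e-07). In tanycyte-like cells the fasted plate was above all 3 fed plates, whereas in astrocyte-like cells it was below both fed plates used.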

How the results depend on the processing

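No paired analysis was possible because the fed and fasted plates share no replicate pairing, 3 plates against 1, for the comparisons of feeding state within a class. Between classes plate was a block, and leaving it out (no replicate block) gave 1299 called genes in place of 1959 for AgRP-like minus other neurons, 0 in place of 40, 0 in place of 1 and 4 in place of 16 for the 3 differences of feeding state between classes, and 101 in place of 164 for sex in all kept cells. Without the block Nptxr and Gria1 of AgRP-like minus other neurons had adjusted p = 0.327 and 0.238 by edgeR.

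DESeq2 called 181 in place of 700 genes for feeding state in AgRP-like neurons, 39 in place of 276 in tanycyte-like cells, 1 in place of 32 in astrocyte-like cells, and 1209 for AgRP-like minus other neurons. With no low count filter the counts were 184 in place of 18 in other neurons, 170 in tanycyte-like cells, 16 in astrocyte-like cells, 3 for other neurons minus astrocyte-like cells, and 70 in place of 9 (other neurons) and 467 (all kept cells) for sex. Plain totals gave 11 in other neurons. Xist-only cells gave 241 in other neurons, 7 in tanycyte-like and 13 in astrocyte-like cells. The largest tanycyte-like cluster alone, an alternative chosen after seeing the data like the naming margin, the peptide features and single wells, gave 128. Leaving out fed plates gave 109 to 640 calls in other neurons, 177 to 341 in tanycyte-like cells, 1378 to 2509 for tanycyte-like minus astrocyte-like cells on fed plates, and 14 to 30, 0 to 3 and 5 to 15 for the differences of feeding state.

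Over 91 results on single members and 853 recalculations, 810 kept their side of the threshold or stayed within the spread of plates. Of the rest, 33 lost a call, 8 gained one and 2 moved, and no called result changed sign. Results that were not called could change sign and still count as kept. Nptxr between fasted and fed tanycyte-like cells, and Nptx2 between fed AgRP-like and tanycyte-like cells, did so. The fed plates differed widely in Nptx2 of AgRP-like neurons, so staying within their spread is a weak check there. Not run, for want of residual degrees of freedom or cells, were Xist-only AgRP-like neurons, astrocyte-like cells without a fed plate, and transmitter types without fed plate 2 or 3. Depth limits Nptx1 and Nptx2, which in fed tanycyte-like and astrocyte-like cells stood at or near a floor of 3 counts.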
